A study of Mus musculus with 23 samples.

Results

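Macrophages are the main immune cells of the testis, and 10 genes that mark them were followed here in whole testis across 3 mouse strains and 2 diets. The genes were chosen by name from the 28861 genes of the deposited count table: Csf1r, Adgre1, Cd68, C1qa, C1qb, C1qc, Cd163, Mrc1, Cd5l and Lyz2. All 10 were in the table, and all 10 passed the filter on low counts, which left 22873 genes. The study sequenced polyA RNA of testis from wild-type C57BL/6J, CAST/EiJ and NZO/HlLtJ males, to ask how genotype and diet act together in mouse models of type 2 diabetes. From 6 to 16 weeks of age the mice ate either the control diet, in which fat made up 10%, or one rich in fat and sugar, in which it made up 44%, and both diets contained fiber. The groups held 4 libraries on 10% fat and 4 on 44% fat for C57BL/6J, 3 and 4 for CAST/EiJ, and 4 and 4 for NZO/HlLtJ, 23 in all. No group carried an engineered allele or a drug. C57BL/6J is the standard laboratory strain, CAST/EiJ is wild-derived, and NZO/HlLtJ is a strain prone to obesity and diabetes.

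Testicular macrophages lie in the interstitium among the Leydig cells, which make testosterone, and on the surface of the seminiferous tubules. They depend on the receptor CSF1R, clear debris and dying cells, and are known to exchange signals with Leydig cells. Their typical genes encode that receptor, surface and lysosomal proteins, the C1q chains that start the classical complement pathway, scavenger receptors and lysozyme. In whole tissue these genes report on the cells as a population: a larger number of macrophages and more RNA per macrophage cannot be told apart.

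Library totals ran from 21918905 to 78691070 estimated counts, with a median of 35135534. Levels are given as CPM, the count of a gene relative to a fixed library total after TMM scaling, as mean ± SD over libraries. Differences are log2 fold changes with the standard error (SE) of edgeR's quasi-likelihood fit, and a gene was called where its p, adjusted by Benjamini-Hochberg over all 22873 genes, was under 0.05. The labels do not say that libraries of a group came from separate animals, so p-values measure the spread between these samples. The strains differed at most genes, and the first 2 principal components, which separated them, held 57.7% and 22.4% of the variance. NZO/HlLtJ 10% fat replicate 4 and 44% fat replicate 3 stood apart from the other NZO/HlLtJ libraries on the fourth component (27.4 and 32.0), which held 1.32% of the variance. Crisp1, a gene of the epididymis, was at 99.0 CPM in CAST/EiJ 44% fat replicate 2 and at 13.02 CPM in C57BL/6J 10% fat replicate 2, against 1.29 CPM or less in the other 21 libraries. C57BL/6J 10% fat replicate 4, the library of the lowest total, lay at 43.9 on the third component, which held 1.61% of the variance. Results were repeated without each of these pairs of libraries and without each single library. The labels and files used here do not state whether CAST/EiJ and NZO/HlLtJ reads were aligned to the C57BL/6J reference or to genomes of their own strains, and the part of this in the strain differences of single genes, such as Cd5l, Adgre1, Fcgr3 and Cd74, was not tested.

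The macrophage genes did not move between strains as a block. Csf1r, Mrc1 and Lyz2 were lowest in C57BL/6J and highest on average in NZO/HlLtJ; Adgre1 and C1qb were lowest in CAST/EiJ; Cd163 was highest in CAST/EiJ; and Cd5l was far higher in C57BL/6J than in the other strains. None of the 10 was called between diets in any strain. The sum of the 10 ranged from 105 to 128 CPM in C57BL/6J (median 108), from 108 to 120 CPM in CAST/EiJ (median 115) and from 119 to 164 CPM in NZO/HlLtJ (median 131). Mrc1 was the largest part of that sum, at means of 48.2, 54.4 and 60.9 CPM in the same order.

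**Figure D1:**
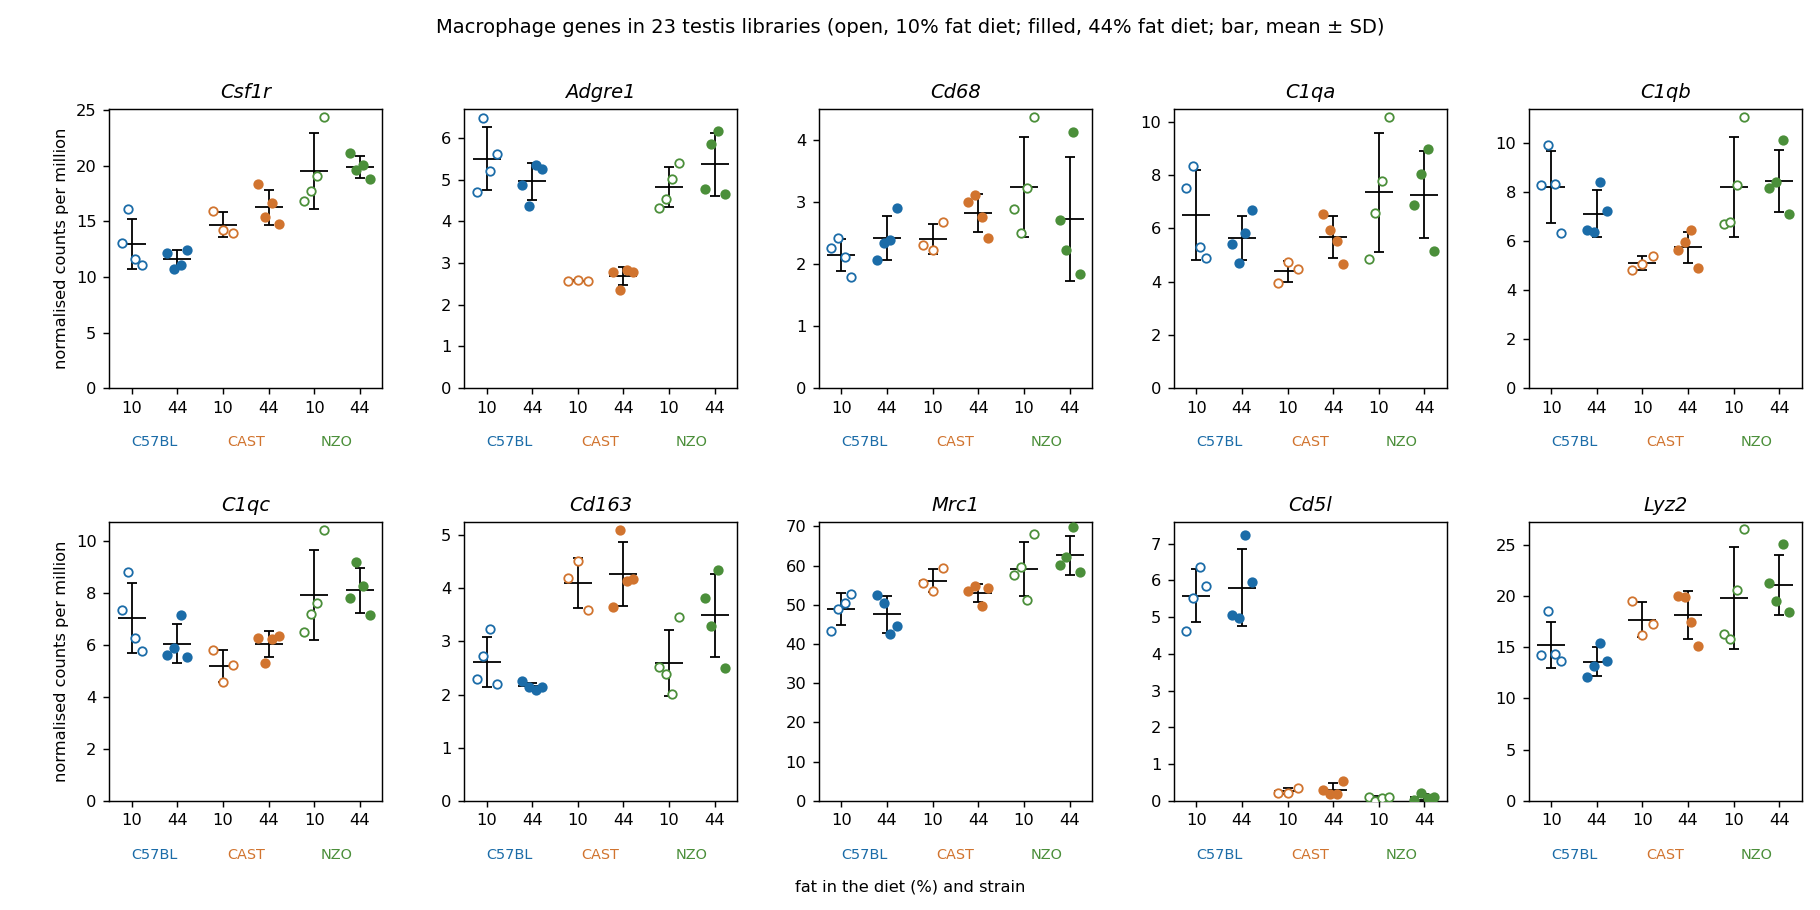
CPM (linear axes from 0) of the 10 macrophage genes in each of the 23 testis libraries, by strain and by fat in the diet; open points are 10% fat, filled points 44% fat, and black bars the group mean ± SD. Cd5l lies between 4.63 and 7.23 CPM in the C57BL/6J libraries and at or under 0.552 CPM in all others, and the 7 CAST/EiJ libraries lie below the other 16 for Adgre1.

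Between NZO/HlLtJ and C57BL/6J, 7 of the 10 genes were called, 6 higher in NZO/HlLtJ and 1 lower. Of all genes tested 59.1% were called in this comparison, 30.4% higher and 28.7% lower, so the share of members called was near the background. The median log2 difference of the members was 0.31, beside 0.01 over all genes. Between CAST/EiJ and C57BL/6J, 7 were called, 4 higher in CAST/EiJ and 3 lower, where 66.8% of all genes were called (32.7% and 34.1%). Their median was -0.02, beside a median over all genes of less than 0.01 in size. Between NZO/HlLtJ and CAST/EiJ, 8 were called, 6 higher in NZO/HlLtJ and 2 lower, with 72.1% of all genes called (39.6% and 32.5%) and medians of 0.27 and 0.06. Within the 10% fat groups the members called were 5, 7 and 7 in the same order of comparisons, beside 42.9%, 53.9% and 58.5% of all genes, and within the 44% fat groups 6, 5 and 6, beside 49.4%, 56.9% and 64.7%. The comparisons share strains, so their counts are not independent. Without both NZO/HlLtJ libraries that stand apart, the first count fell from 7 to 4, and Cd68, C1qc and Cd163 were no longer called. Without C57BL/6J 10% fat replicate 4, the second count rose from 7 to 9, 4 higher and 5 lower. The shares of all genes called without these libraries are not given here.

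**Figure D2:**
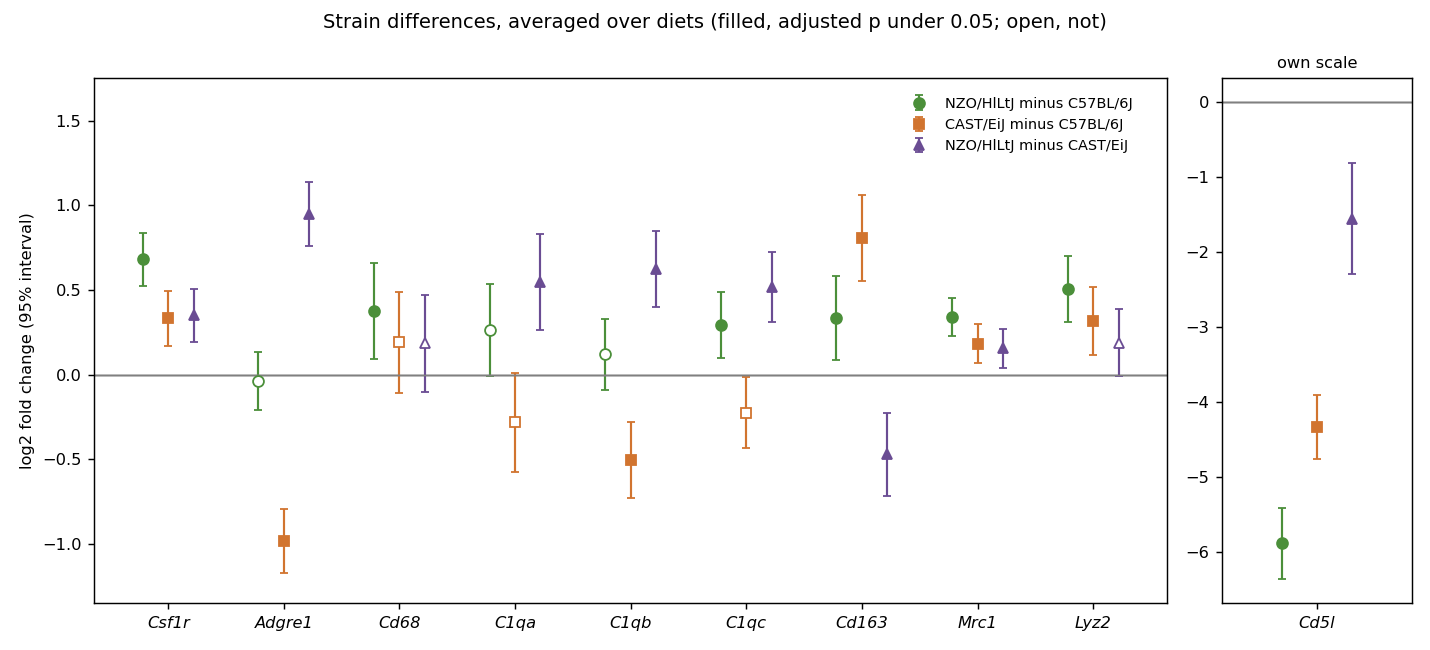
Log2 fold change with its 95% interval for each macrophage gene in the 3 strain comparisons, averaged over diets; filled symbols have an adjusted p under 0.05, and Cd5l has its own axis. Csf1r and Mrc1 lie above 0 in all 3 comparisons, while Adgre1 lies at -0.99 for CAST/EiJ minus C57BL/6J and at -0.04 for NZO/HlLtJ minus C57BL/6J.

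Csf1r encodes the receptor tyrosine kinase on which macrophages depend for survival. In GRCm38 it lies on chromosome 18 at 61105572-61132149 on the plus strand, and its end overlaps the antisense gene Hmgxb3. The C57BL/6J libraries ran from 10.8 to 16.1 CPM (median 11.9), the CAST/EiJ libraries from 13.9 to 18.3 (median 15.4) and the NZO/HlLtJ libraries from 16.9 to 24.4 (median 19.4). No NZO/HlLtJ library overlapped a C57BL/6J library, while CAST/EiJ lay between them and overlapped both. Csf1r was higher in NZO/HlLtJ than in C57BL/6J by 0.68 (SE 0.08, adjusted p 9.19e-09), and higher in CAST/EiJ than in C57BL/6J by 0.33 (SE 0.08, adjusted p 5.68e-04). The step from CAST/EiJ to NZO/HlLtJ was 0.35 (SE 0.08, adjusted p 2.08e-04). Hmgxb3 itself ran the other way, at 56.5 ± 2.35 CPM in C57BL/6J and 50.8 ± 2.35 CPM in NZO/HlLtJ (n = 8 each). The labels and files used here do not state how reads in the overlap were assigned.

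The ligands of the receptor are CSF1 and IL-34. Csf1 was at 5.81 ± 0.88 CPM in C57BL/6J (n = 8), 6.88 ± 1.4 in CAST/EiJ (n = 7) and 7.64 ± 1.2 in NZO/HlLtJ (n = 8). Il34 was lower, at 0.526 ± 0.24, 0.593 ± 0.18 and 0.812 ± 0.23 CPM. Both ligands were called higher in NZO/HlLtJ than in C57BL/6J, Csf1 by 0.40 (adjusted p 0.00419) and Il34 by 0.59 (adjusted p 0.0416), and neither was called in the other strain pairs. Among 8 tested transcription factors of the macrophage lineage, 4 were higher and 1 lower in NZO/HlLtJ than in C57BL/6J, beside 30.4% and 28.7% of all genes. In CAST/EiJ 4 were higher and 3 lower than in C57BL/6J, beside 32.7% and 34.1% of all genes. Maf, which drives macrophage differentiation, was at 6.78 ± 0.57, 8.36 ± 0.59 and 11.8 ± 0.95 CPM in C57BL/6J, CAST/EiJ and NZO/HlLtJ, and all 3 steps were called (0.29, 0.80 and 0.51 for CAST/EiJ minus C57BL/6J, NZO/HlLtJ minus C57BL/6J and NZO/HlLtJ minus CAST/EiJ). Irf8, a factor of the myeloid lineage, was higher than in C57BL/6J by 0.77 in CAST/EiJ (adjusted p 0.0010) and by 0.89 in NZO/HlLtJ (adjusted p 1.88e-04).

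Adgre1 encodes F4/80, the surface receptor most used to recognise mouse macrophages, and lies on chromosome 17 at 57358686-57483529 on the plus strand. Its level was 4.36 to 6.48 CPM in C57BL/6J (median 5.22), 2.35 to 2.84 CPM in CAST/EiJ (median 2.60) and 4.32 to 6.16 CPM in NZO/HlLtJ (median 4.90). All 7 CAST/EiJ libraries lay below all libraries of the other strains. The difference was -0.99 for CAST/EiJ minus C57BL/6J (SE 0.09, adjusted p 1.78e-10) and 0.95 for NZO/HlLtJ minus CAST/EiJ (SE 0.09, adjusted p 3.04e-10). NZO/HlLtJ and C57BL/6J were not called apart, with a difference of -0.04 and a 95% interval from -0.21 to 0.13. The tested gene nearest to Adgre1, Vav1, was lower in CAST/EiJ than in C57BL/6J by a smaller step (-0.28, adjusted p 0.00726).

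Cd68 encodes a lysosomal membrane glycoprotein of macrophages and was among the members with the lowest counts. It lies on chromosome 11 at 69664213-69666153 on the minus strand. Levels ran from 1.79 to 2.90 CPM in C57BL/6J, from 2.22 to 3.10 in CAST/EiJ and from 1.84 to 4.36 in NZO/HlLtJ, so all 3 strains overlapped. Cd68 was called higher in NZO/HlLtJ than in C57BL/6J by 0.37 (SE 0.14, adjusted p 0.0208), and not in the other pairs. That call rests on NZO/HlLtJ 10% fat replicate 4 (4.36 CPM) and 44% fat replicate 3 (4.12 CPM): the adjusted p was 0.0697 without the former, 0.0910 without the latter and 0.256 without both, when the difference was 0.15.

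C1qa, C1qb and C1qc encode the 3 chains of C1q, the protein that recognises immune complexes and dying cells and starts the classical complement pathway. The genes lie side by side on chromosome 4, all on the minus strand, within 18675 bases: C1qb at 136880129-136886187, C1qc at 136889804-136893065 and C1qa at 136895917-136898803. Each pair of their longest transcripts shared 0 windows of 100 bases, the read length. C1qb ran from 6.34 to 9.91 CPM in C57BL/6J (median 7.76), from 4.83 to 6.45 in CAST/EiJ (median 5.39) and from 6.69 to 11.1 in NZO/HlLtJ (median 8.23). C1qa ran from 4.71 to 8.33 CPM, 3.96 to 6.54 and 4.86 to 10.2 in the same order of strains. C1qc ran from 5.54 to 8.78 CPM, 4.57 to 6.33 and 6.49 to 10.4. For C1qb and C1qc all CAST/EiJ libraries lay below all NZO/HlLtJ libraries, and for C1qa the strains overlapped.

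All 3 chains were higher in NZO/HlLtJ than in CAST/EiJ, C1qa by 0.55 (SE 0.14, adjusted p 9.58e-04), C1qb by 0.62 (SE 0.11, adjusted p 9.56e-06) and C1qc by 0.52 (SE 0.10, adjusted p 4.43e-05). Against C57BL/6J the picture was less even. In CAST/EiJ C1qb was lower (-0.51, adjusted p 1.96e-04), while C1qa at -0.28 (adjusted p 0.0792) and C1qc at -0.23 (adjusted p 0.0540) were not called. In NZO/HlLtJ C1qc was 0.29 higher (adjusted p 0.0100; 0.0564 without both NZO/HlLtJ libraries that stand apart), while C1qa at 0.26 (adjusted p 0.0865) and C1qb at 0.12 (adjusted p 0.327) were not called. The 3 chains summed to 20.3 ± 3.5 CPM in C57BL/6J, with 16.3 ± 1.7 in CAST/EiJ and 23.6 ± 4.5 in NZO/HlLtJ. Within the CAST/EiJ difference from C57BL/6J the diets were unlike: C1qa stood at -0.58 on 10% fat (adjusted p 0.0213) and at 0.02 on 44% fat, and C1qc at -0.45 (adjusted p 0.0143) and at 0.00. The difference between these diet effects had an unadjusted p of 0.0428 for C1qa and 0.0382 for C1qc, and neither was called after adjustment.

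C1q acts in a complex with the proteases C1r and C1s, which cleave C4 and C2. Of 16 tested complement partners and receptors, 10 were higher and 1 lower in NZO/HlLtJ than in C57BL/6J (median 0.44), beside 30.4% and 28.7% of all genes. In CAST/EiJ 4 were higher and 5 lower (median -0.13), beside 32.7% and 34.1%. Of the genes of the next steps, named here after their values were seen, C2 was at 19.8 ± 1.8 CPM in C57BL/6J, with 10.2 ± 1.1 in CAST/EiJ and 55.1 ± 8.3 in NZO/HlLtJ. C1s1 was at 14.04 ± 1.56, 8.55 ± 0.87 and 26.8 ± 5.2 CPM, and C1ra at 10.5 ± 1.2, 9.32 ± 0.81 and 18.9 ± 2.1 CPM. C4b ran otherwise, at 28.8 ± 2.1 CPM in C57BL/6J against 6.74 ± 1.2 in CAST/EiJ and 12.8 ± 3.4 in NZO/HlLtJ. Of the 3 most abundant genes of the list, the endocytic receptor gene Lrp1 was 0.97 higher in NZO/HlLtJ and 0.30 higher in CAST/EiJ than in C57BL/6J, Cd55, an inhibitor of complement on cell surfaces, was 0.17 and 0.30 higher, and Calr, which encodes calreticulin, a partner of C1q in the uptake of dying cells, was not called against C57BL/6J (0.01 and -0.04).

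Cd5l had the largest strain difference of the members. It encodes CD5L, also called AIM, a secreted protein of tissue macrophages with scavenger receptor cysteine-rich domains that is known to act in lipid metabolism and the survival of macrophages. It lies on chromosome 3 at 87357881-87371073 on the plus strand. In C57BL/6J the 4 libraries on 10% fat were at 4.63, 5.52, 6.36 and 5.83 CPM, and the 4 on 44% fat at 5.04, 4.97, 7.23 and 5.95 CPM. In CAST/EiJ the values were 0.210, 0.219 and 0.350 CPM on 10% fat, and 0.292, 0.181, 0.177 and 0.552 CPM on 44% fat. In NZO/HlLtJ they were 0.113, 0, 0.0895 and 0.0963 CPM on 10% fat, and 0.0270, 0.210, 0.0888 and 0.111 CPM on 44% fat.

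Behind these levels stood 127 to 245 counts per library in C57BL/6J, 6 to 22 in CAST/EiJ and 0 to 9 in NZO/HlLtJ, or 1522, 81 and 29 counts over the 8, 7 and 8 libraries. Every C57BL/6J library was thus far above every library of the other strains, and on both diets. Cd5l was 20.1-fold lower in CAST/EiJ than in C57BL/6J (log2 fold change -4.33, SE 0.21, adjusted p 5.00e-17) and 59.0-fold lower in NZO/HlLtJ (log2 fold change -5.88, SE 0.23, adjusted p 1.42e-18). NZO/HlLtJ was also below CAST/EiJ, by -1.55 (SE 0.36, adjusted p 3.71e-04), although their libraries overlapped at 0.177 to 0.210 CPM. The gene nearest to Cd5l among those tested, Fcrls, another gene of myeloid cells, was highest in CAST/EiJ, at 1.65 ± 0.34 CPM in C57BL/6J, with 4.74 ± 0.48 in CAST/EiJ and 2.24 ± 0.48 in NZO/HlLtJ. Etv3, on the other side, differed by 0.09 at most against C57BL/6J. Spic, the gene of a transcription factor of red pulp macrophages, reached at most 14.3 counts in a library and was below the filter.

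Cd163 and Cd5l belong to the same family of scavenger receptor cysteine-rich proteins, and the upstream sequences of both are shown with that of C1qb, to set Cd5l beside a relative and beside a C1q chain. Each is the 250 bases before the gene's start in RefSeq (GRCm38.p6), written 5′ to 3′ on the gene's strand: Cd5l at chr3:87357631-87357880 on the plus strand, Cd163 at chr6:124304401-124304650 on the plus strand and C1qb at chr4:136886201-136886450 on the minus strand. Capitals mark matches on either strand to GAGGAA, the core of sites for PU.1, the factor of Spi1, and to TGCTGA, the core of MAF sites.
Cd5l: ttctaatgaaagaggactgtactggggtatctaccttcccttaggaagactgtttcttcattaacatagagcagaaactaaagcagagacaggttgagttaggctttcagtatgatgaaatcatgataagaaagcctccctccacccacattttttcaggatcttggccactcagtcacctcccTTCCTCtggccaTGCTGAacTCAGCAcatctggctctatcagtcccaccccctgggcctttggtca
C1qb: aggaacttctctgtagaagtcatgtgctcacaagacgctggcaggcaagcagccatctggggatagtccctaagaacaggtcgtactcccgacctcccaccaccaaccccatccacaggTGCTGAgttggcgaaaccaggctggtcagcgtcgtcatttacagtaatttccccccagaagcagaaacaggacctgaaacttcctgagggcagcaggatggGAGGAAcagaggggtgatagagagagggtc
Cd163: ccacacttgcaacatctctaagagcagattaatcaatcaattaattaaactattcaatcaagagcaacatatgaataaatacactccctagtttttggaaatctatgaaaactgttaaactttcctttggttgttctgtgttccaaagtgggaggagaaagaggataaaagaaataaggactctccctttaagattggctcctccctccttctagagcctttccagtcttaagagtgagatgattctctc

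In the Cd5l window the PU.1 core lay at -66 to -61 on the minus strand, counted from the base before the start as -1. A pair of MAF cores facing each other followed at -54 to -49 and -46 to -41. C1qb had the PU.1 core at -30 to -25 and 1 MAF core at -131 to -126, and the Cd163 window held neither string. Over the 32851 windows of the same length in the table, 23.3% held GAGGAA and 16.1% held TGCTGA on either strand, so single matches are common. Windows were listed for 7 of the 10 members. The sequences are those of the reference, and the files used here hold none of CAST/EiJ or NZO/HlLtJ. Spi1 itself was at 0.783 ± 0.25, 0.759 ± 0.16 and 0.903 ± 0.27 CPM in C57BL/6J, CAST/EiJ and NZO/HlLtJ and was not called in any pair, and Maf was lowest in C57BL/6J, where Cd5l was highest.

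Cd163 encodes the receptor that takes up haemoglobin bound to haptoglobin, and lies on chromosome 6 at 124304656-124330527 on the plus strand. It ran from 2.09 to 3.24 CPM in C57BL/6J (median 2.23), from 3.58 to 5.09 CPM in CAST/EiJ (median 4.18) and from 2.01 to 4.35 CPM in NZO/HlLtJ (median 2.90). The CAST/EiJ libraries all lay above the C57BL/6J libraries, and the NZO/HlLtJ libraries overlapped both. Cd163 was higher in CAST/EiJ than in C57BL/6J by 0.81 (SE 0.12, adjusted p 1.69e-06) and NZO/HlLtJ lay below CAST/EiJ, at -0.47 (SE 0.12, adjusted p 9.76e-04). The call between NZO/HlLtJ and C57BL/6J (0.33, SE 0.12, adjusted p 0.02003) was uneven: the difference was -0.02 on 10% fat (adjusted p 0.932) and 0.69 on 44% fat (adjusted p 0.00141), and the adjusted p was 0.0754 without NZO/HlLtJ 10% fat replicate 4, 0.0565 without 44% fat replicate 3 and 0.177 without both.

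Of 9 tested genes for haemoglobin and iron handling, 6 were higher and none lower in CAST/EiJ than in C57BL/6J, and 7 were higher and none lower in NZO/HlLtJ; of all genes 32.7% and 30.4% were higher in these comparisons. Fth1, which encodes the heavy chain of the iron store ferritin, was at 121 ± 12, 187 ± 13 and 138 ± 14 CPM in C57BL/6J, CAST/EiJ and NZO/HlLtJ, the same order as Cd163. Ftl1, the light chain, was at 74.5 ± 10.5, 69.5 ± 2.97 and 88.2 ± 13.1 CPM. Of 5 tested genes with scavenger receptor cysteine-rich domains, Cd163 and Cd5l among them, 2 were higher and 3 lower in CAST/EiJ, and 2 higher and 1 lower in NZO/HlLtJ, than in C57BL/6J. The shares of all genes lower were 34.1% in CAST/EiJ and 28.7% in NZO/HlLtJ. Msr1, a receptor for modified lipoproteins, was at 7.28 ± 1.4, 12.5 ± 1.4 and 8.45 ± 0.49 CPM, 0.78 higher in CAST/EiJ than in C57BL/6J (adjusted p 2.82e-08). Dmbt1 and Ssc5d, also of this family, were lower there, Dmbt1 by -3.12 (adjusted p 1.23e-08) and Ssc5d by -0.39 (adjusted p 0.0257).

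Mrc1 encodes the mannose receptor CD206, which binds and takes up glycoproteins. On chromosome 2 at 14229392-14332057, plus strand, it holds the gene of the microRNA Mir511. It ran from 42.4 to 52.8 CPM in C57BL/6J (median 49.7), from 49.8 to 59.3 in CAST/EiJ (median 54.3) and from 51.3 to 69.8 in NZO/HlLtJ (median 59.9), with overlap between all strains. The order was that of Csf1r with smaller steps: 0.18 for CAST/EiJ (SE 0.06, adjusted p 0.00621) and 0.34 for NZO/HlLtJ (SE 0.05, adjusted p 5.11e-06) against C57BL/6J. The step between NZO/HlLtJ and CAST/EiJ, 0.16 (SE 0.06, adjusted p 0.0149), was not called without both NZO/HlLtJ libraries that stand apart (0.09, adjusted p 0.119). Of the mannose receptor family, Pla2r1, the gene of a phospholipase A2 receptor, was 0.96 higher in NZO/HlLtJ than in C57BL/6J and lower in CAST/EiJ (-0.47), and Mrc2 was not called in either.

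Lyz2 encodes the lysozyme of macrophages, which cleaves bacterial cell walls, and lies on chromosome 10 at 117277334-117282274 on the minus strand. It ran from 12.1 to 18.5 CPM in C57BL/6J (median 13.9), from 15.1 to 19.95 in CAST/EiJ (median 17.4) and from 15.8 to 26.5 in NZO/HlLtJ. All strains overlapped, with C57BL/6J lowest. It was called higher than in C57BL/6J in CAST/EiJ by 0.32 (SE 0.10, adjusted p 0.00620) and in NZO/HlLtJ by 0.50 (SE 0.09, adjusted p 4.06e-05), and not between NZO/HlLtJ and CAST/EiJ (0.19, adjusted p 0.0807). Its neighbour Lyz1, 5521 bases away, has a transcript identical to that of Lyz2 at 1211 of 1262 aligned bases (96.0%). Of 1217 windows of 100 bases, 24 (1.97%) are shared between the pair. How the authors' counting split reads between the pair is not given, so the values of each are uncertain. Lyz1 took 0.9108 ± 0.98997% of the summed CPM of the pair in C57BL/6J, with 3.77 ± 1.62% in CAST/EiJ and 0.419 ± 0.194% in NZO/HlLtJ, and the sum kept the order of Lyz2, at 14.5 ± 1.94, 18.6 ± 2.09 and 20.5 ± 3.87 CPM. The other lysozyme-like genes of the list are genes of sperm, and ran otherwise: Lyzl6 was at 78.4 ± 7.9, 77.2 ± 3.6 and 71.4 ± 2.1 CPM, Spaca3 at 71.5 ± 4.5, 69.1 ± 3.0 and 60.4 ± 3.5 CPM, and Lyzl1 at 51.2 ± 5.2, 43.6 ± 3.3 and 39.7 ± 1.6 CPM.

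Between genes, levels can be compared only per length, taken here as all annotated exon bases of a gene. That length can exceed a transcript. It was 1931 bases for C1qc and 5461 for Cd163, whose longest transcripts have 1203 and 4443. The order of genes on this scale is therefore not an order per transcript. On that scale Lyz2 was highest in every strain, at 10.9, 13.6 and 15.5 CPM per kb of exon in C57BL/6J, CAST/EiJ and NZO/HlLtJ. Mrc1 followed at 7.56, 8.54 and 9.56 CPM per kb, and C1qb at 7.05, 5.02 and 7.66. Cd5l took a middle place in C57BL/6J, at 2.80 CPM per kb of exon, above Csf1r at 2.13. Whether that order holds per transcript was not tested. In CAST/EiJ and NZO/HlLtJ it was the lowest member, at 0.139 and 0.0452 CPM per kb. Cd163 was the lowest in C57BL/6J, at 0.437.

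The members were also set against Csf1r in the same library. This ratio takes out any factor that multiplies all macrophage genes of a library alike. Csf1r itself was 0.68 higher in NZO/HlLtJ and 0.33 higher in CAST/EiJ than in C57BL/6J, so the ratio of a gene that does not differ is lower by as much. The ratios are given as a description, with no test. The log2 ratio of Adgre1 to Csf1r was -1.23 ± 0.16 in C57BL/6J, with -2.56 ± 0.13 in CAST/EiJ and -1.96 ± 0.17 in NZO/HlLtJ. The mean of C1qb to Csf1r was also lowest in CAST/EiJ, at -0.69 ± 0.17, -1.51 ± 0.16 and -1.26 ± 0.15. That of Lyz2 was 0.23 ± 0.15, 0.20 ± 0.13 and 0.04 ± 0.15. For Cd163 the mean ratio was 0.47 above that of C57BL/6J in CAST/EiJ and at -0.36 from it in NZO/HlLtJ.

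**Figure D3:**
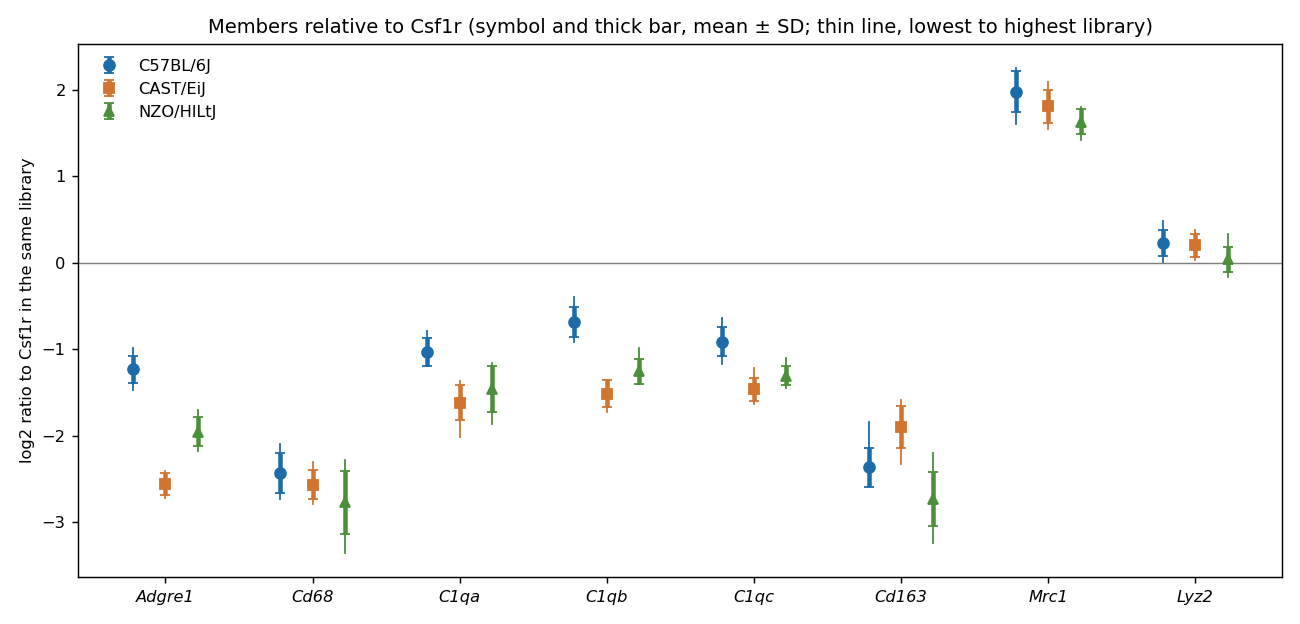
Log2 ratio of 8 macrophage genes to Csf1r in the same library, by strain (8 C57BL/6J, 7 CAST/EiJ and 8 NZO/HlLtJ libraries); symbols and thick bars are mean ± SD, and thin lines run from the lowest to the highest library. The mean of Adgre1 lies at -1.23 in C57BL/6J and at -2.56 in CAST/EiJ, and that of Lyz2 at 0.04 to 0.23 in all 3 strains.

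Libraries whose CPM did not overlap between strains were found for 2 members between NZO/HlLtJ and C57BL/6J (Csf1r and Cd5l; 26.3% of all genes), for 3 between CAST/EiJ and C57BL/6J (Adgre1, Cd163 and Cd5l; 39.1% of all genes) and for 3 between NZO/HlLtJ and CAST/EiJ (Adgre1, C1qb and C1qc; 43.9% of all genes). These shares of members were below those of all genes.

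Further macrophage genes were taken from lists, and their counts stand beside 30.4% of all genes higher and 28.7% lower in NZO/HlLtJ, and 32.7% and 34.1% in CAST/EiJ, than in C57BL/6J. Of 20 pan-macrophage and myeloid genes, 14 were higher and 2 lower in NZO/HlLtJ than in C57BL/6J (median 0.44), and 5 higher and 6 lower in CAST/EiJ (median -0.03). Fcgr3, which encodes a low-affinity receptor for IgG, was at 13.2 ± 1.5 CPM in C57BL/6J, with 67.0 ± 2.8 in CAST/EiJ and 2.74 ± 0.57 in NZO/HlLtJ. Lgmn, the gene of a lysosomal protease, rose in the order of Csf1r, at 37.2 ± 2.7, 44.1 ± 2.74 and 60.8 ± 10.5 CPM. Aif1, which spermatids also express, was the most abundant of the list, at 212 ± 9.5, 212 ± 9.5 and 189 ± 12 CPM.

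Genes of macrophages resident in the interstitium were split: of 11 tested, 4 were higher and 1 lower in NZO/HlLtJ than in C57BL/6J, and 4 higher and 4 lower in CAST/EiJ. Gas6, which bridges dying cells to their receptors and is also made by Leydig and Sertoli cells, was 0.57 higher in CAST/EiJ and not called in NZO/HlLtJ. Stab1, a scavenger receptor gene, was 0.51 and 0.68 higher in CAST/EiJ and NZO/HlLtJ than in C57BL/6J, and F13a1, the gene of a clotting factor chain made by macrophages, was 0.02 and 0.58 higher, the former not called. Of 8 listed genes for MHC class II, its loading and peritubular macrophages, 5 were lower and 1 higher in CAST/EiJ than in C57BL/6J. H2-DMa (0.16) and H2-Aa (0.07) were not called in that pair. The gene that was higher was Itgax, an integrin gene and not one of MHC class II. It was at 0.470 ± 0.15 CPM in C57BL/6J and 1.76 ± 0.43 in CAST/EiJ. Cd74, the invariant chain, was at 10.3 ± 2.9 CPM in C57BL/6J, with 1.85 ± 0.51 in CAST/EiJ and 11.2 ± 5.2 in NZO/HlLtJ. H2-Ab1 was low in NZO/HlLtJ too, at 6.81 ± 1.85, 2.66 ± 0.50 and 2.63 ± 1.68 CPM in the same order. H2-Eb1 was at 5.36 ± 1.76, 2.08 ± 0.31 and 4.92 ± 2.53 CPM. Of 14 engulfment and lysosome genes, 7 were higher and 2 lower in CAST/EiJ, and 8 higher and 2 lower in NZO/HlLtJ, than in C57BL/6J. Among them Ctsd, the gene of cathepsin D, was 0.51 and 0.43 higher, Ctsl, the gene of cathepsin L, was lower in CAST/EiJ (-0.34) and 0.23 higher in NZO/HlLtJ, and Lamp1 was called in neither.

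Macrophages act on Leydig cells through secreted factors, and 4 of 10 listed genes for these were tested. Tgfb1 was at 9.78 ± 1.0 CPM in C57BL/6J, with 4.66 ± 0.41 in CAST/EiJ and 11.2 ± 1.3 in NZO/HlLtJ. Cxcl12 was at 20.5 ± 1.86, 12.8 ± 0.89 and 22.6 ± 3.6 CPM. Both of these genes are also made by other testis cells and were lower in CAST/EiJ than in C57BL/6J. Il1a was at 2.25 ± 0.21, 2.01 ± 0.13 and 2.27 ± 0.41 CPM and was not called in any pair. Il1b was at 0.890 ± 0.208, 1.69 ± 0.242 and 1.26 ± 0.247 CPM, and was higher than in C57BL/6J by 0.95 in CAST/EiJ (adjusted p 2.27e-06) and by 0.51 in NZO/HlLtJ (adjusted p 0.00394). Ch25h, whose enzyme makes the sterol that macrophages pass to Leydig cells, had at most 15 counts in a library and was below the filter, as were Il1rn, Tnf, Il6 and Ccl2.

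Markers of other testis cells moved with strain as well. In NZO/HlLtJ against C57BL/6J, 5 of 6 Sertoli cell genes were higher and 0 lower, of 8 Leydig cell genes 5 were higher and 2 lower, of 5 peritubular myoid genes 3 and 1, and of 6 endothelial genes 4 and 1, beside 30.4% and 28.7% of all genes. All 6 spermatid genes were lower, with a median of -0.24. The Leydig cell genes that were lower were Hsd3b6, at 83.4 ± 18.2 CPM in C57BL/6J and 4.96 ± 1.496 in NZO/HlLtJ, and Cyp11a1, at 110 ± 16.4 and 77.4 ± 23.05; Hsd3b6 belongs to a family of near-identical copies, so its value is uncertain. The summed Leydig cell markers ran from 612 to 891 CPM in C57BL/6J, from 509 to 704 CPM in CAST/EiJ and from 1077 to 1571 CPM in NZO/HlLtJ. The higher sum in NZO/HlLtJ lay largely in 2 genes, Hsd3b1 and Cyp17a1. Hsd3b1 was at 59.2 ± 6.8, 67.6 ± 6.9 and 317 ± 29 CPM in the same order, and is of the same family as Hsd3b6, so its value is uncertain too. Cyp17a1 was at 286 ± 51, 166 ± 33 and 525 ± 85 CPM. In CAST/EiJ against C57BL/6J, all 5 myoid and 3 of 6 endothelial genes were lower, and 1 spermatid gene was higher and 1 lower. Of 10 listed markers of monocytes and neutrophils 4 were tested. Their sum ran from 6.75 to 10.00 CPM in C57BL/6J, 7.50 to 9.03 in CAST/EiJ and 11.9 to 14.2 in NZO/HlLtJ. Plac8, most of that sum, was at 6.65 ± 0.83, 6.55 ± 0.50 and 6.97 ± 0.57 CPM in the same order. The higher sum in NZO/HlLtJ lay mostly in Chil3, at 1.43 ± 0.35, 0.665 ± 0.14 and 4.47 ± 0.80 CPM. The neutrophil genes Ngp and Camp had at most 6 and 10 counts in a library. The lymphocyte markers summed to 4.50 to 6.44, 2.79 to 3.92 and 5.30 to 7.94 CPM. The mast cell gene Cpa3, the only one of its list tested, reached 1.03 CPM in CAST/EiJ and 0.368 CPM elsewhere. The part of these shifts in the macrophage values was not tested.

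Diet left no called change in the macrophage genes. Of the 22873 genes 0.00874% were called in C57BL/6J, 0% in CAST/EiJ, 0.00437% in NZO/HlLtJ and 0% averaged over strains, and 0 of the 10 members were called in each. At an unadjusted p under 0.05 the count of members by edgeR was 0 for C57BL/6J and for CAST/EiJ, 1 for NZO/HlLtJ and 0 averaged over strains. The shares of all genes at that unadjusted p are not given here for any test of diet. DESeq2 and limma on the deposited log2 values also called 0 members in each.

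For Csf1r the 4 C57BL/6J libraries on 10% fat were at 13.03, 16.1, 11.6 and 11.1 CPM, and those on 44% fat at 12.2, 10.8, 11.1 and 12.4 CPM. The difference was -0.17, with a 95% interval from -0.39 to 0.06. In CAST/EiJ it was 0.15 (-0.08 to 0.39), and in NZO/HlLtJ 0.03 (-0.18 to 0.24). Averaged over strains, the difference of Csf1r was 0.00, with an interval from -0.13 to 0.13, and that of Mrc1 was -0.01, from -0.10 to 0.08. Intervals were widest for Cd5l in the strains where it was low: 0.17 (-0.70 to 1.05) in CAST/EiJ and 0.55 (-0.71 to 1.81) in NZO/HlLtJ. In C57BL/6J, where it was abundant, Cd5l differed between diets by 0.06 (-0.35 to 0.46). In C57BL/6J 8 of the 10 members had a negative value on 44% fat, with a median of -0.17; without C57BL/6J 10% fat replicate 2 the median was -0.05, with 8 below 0. The median was 0.16 in CAST/EiJ and 0.06 in NZO/HlLtJ, and that of all genes was 0.00 in each.

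Cd163 in NZO/HlLtJ had the smallest diet p of the members. On 10% fat the NZO/HlLtJ libraries were at 2.51, 2.38, 2.01 and 3.47 CPM, and on 44% fat at 3.81, 3.29, 4.35 and 2.51 CPM. The diets overlapped, and the difference was 0.43 (95% interval 0.08 to 0.77, unadjusted p 0.0167, adjusted p 0.723). In C57BL/6J the libraries were at 2.30, 2.73, 3.24 and 2.20 CPM on 10% fat and at 2.25, 2.13, 2.09 and 2.15 CPM on 44% fat, a difference of -0.29 (-0.65 to 0.08). The diet effect in NZO/HlLtJ exceeded that in C57BL/6J by 0.71 (SE 0.24, unadjusted p 0.00689), which was not called over all genes. A test of all 3 strains at once for unequal diet effects called 0% of genes and 0 members, with 1 member, Cd163, at an unadjusted p under 0.05 (0.0240, adjusted p 0.943). In that test DESeq2 and limma called 0 members too. No member had libraries that did not overlap between the diets of any strain, beside 2.09% of all genes in C57BL/6J, with 5.29% in CAST/EiJ and 3.58% in NZO/HlLtJ.

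**Figure D4:**
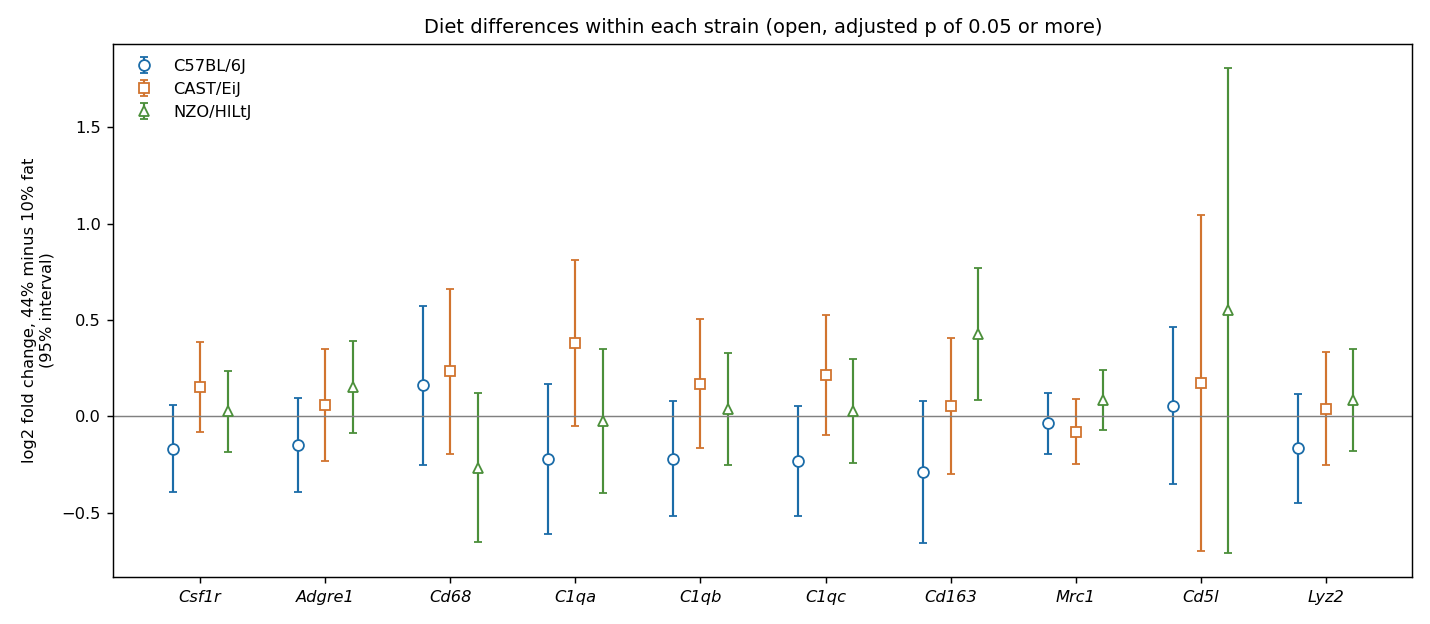
Log2 fold change of 44% against 10% fat with its 95% interval for each macrophage gene within each strain; open symbols have an adjusted p of 0.05 or more, as all do. All intervals reach 0 except that of Cd163 in NZO/HlLtJ, which runs from 0.08 to 0.77 with an adjusted p of 0.723.

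Within a group, most of the macrophage genes varied together from library to library. After the group means were subtracted from log2 CPM, the 36 pairs among the 9 members without Cd5l had a median Pearson r of 0.53 over 23 libraries, with a range from 0.05 to 0.84. The C1q chains correlated with each other at 0.65 to 0.82, and Lyz2 with C1qb at 0.84. Cd5l stood apart, with a median r of 0.03 to the other members. Mrc1 did as well, at 0.05 to 0.07 with the C1q chains, 0.11 with Csf1r and 0.52 with Cd163. These values are descriptions over libraries that share their scaling and, in Cd5l, few counts outside C57BL/6J. Without both NZO/HlLtJ libraries that stand apart, the median of the 36 pairs fell from 0.53 to 0.39, and Mrc1 correlated with C1qb at -0.55. The r of Cd163 also fell, from 0.30 to 0.01 with Csf1r, from 0.37 to 0.03 with C1qa and from 0.25 to -0.09 with C1qc. No median r over pairs of other genes is given here to set beside these values.

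**Figure D5:**
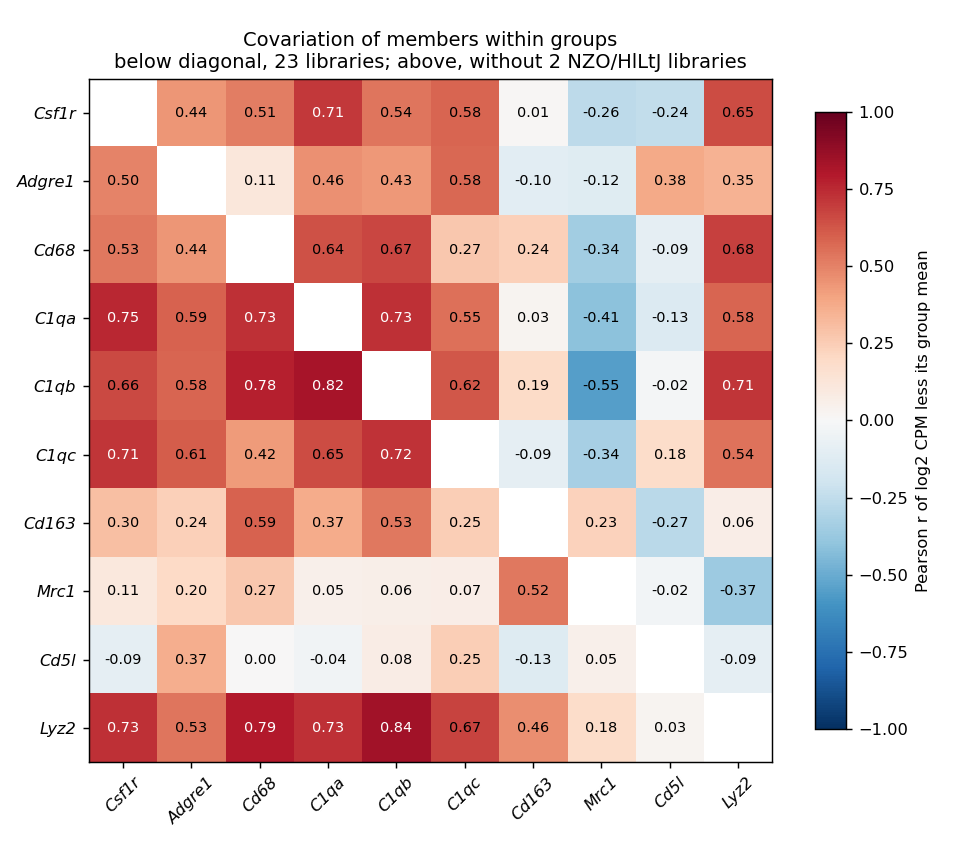
Pearson r between macrophage genes of log2 CPM less its group mean, below the diagonal over 23 libraries and above it without NZO/HlLtJ 10% fat replicate 4 and 44% fat replicate 3. The block of Csf1r, Cd68, the C1q chains and Lyz2 is at 0.42 to 0.84 below the diagonal, and the row of Mrc1 changes to negative values with the C1q chains above it.

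Single libraries carried much of this shared movement. In NZO/HlLtJ 10% fat replicate 4 all 9 members without Cd5l were above their group mean, by 0.38 log2 units on average, and in 44% fat replicate 3 all 9 were, by 0.25. In the same 2 libraries the pan-macrophage list was 0.36 and 0.17 above its group mean, the Sertoli cell list 0.35 and 0.23 above, and the spermatid list -0.11 and -0.07 from it. At the other end, all 9 were below the mean in NZO/HlLtJ 10% fat replicate 1 (-0.20) and 44% fat replicate 4 (-0.26). C57BL/6J 10% fat replicate 2, with Crisp1 at 13.02 CPM, had all 9 above its group mean, by 0.24.

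By the same measure, the genes most like each member were in part broadly expressed ones. For Csf1r these were Man1c1, Litaf and Cnpy3 (r 0.87 each), and Man1c1 (0.84) also led for Lyz2, followed by C1qb. For C1qa the genes were Ftl1 (0.88), Gnas and Rpl3, for C1qb Prdx1 (0.88), Ftl1 and Fadd, and for C1qc Zfp358 (0.87), Prelid1 and C330006A16Rik. Those for Mrc1 were Scaf11 (0.90), Twsg1 and Rock2 (0.89). Cd68 was followed most closely by Reep5 (0.83), Elf4 and Gart, Cd163 by genes that include Bcl9 (0.83) and E430025E21Rik, Adgre1 by 1700011M02Rik (0.78), Nagpa and Cyp26b1, and Cd5l by Ovgp1 (0.80), 1700055D18Rik and Ppp1r3e. All of these r are over 23 libraries and were picked as the highest among all tested genes with a mean of at least 1 CPM.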

How the data were processed

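The members and gene lists were chosen with earlier results of these data known. The authors deposited estimated counts per gene (22.6% of values differ from a whole number by more than 0.001) and a table of log2 values from a variance-stabilising transformation; gene positions come from the authors' deposited annotation. The submitters' processing notes name GRCm38 and DESeq2; the aligner, the counting tool and any use of strain genomes were not stated in those sources. Replicate libraries differed beyond counting error (chi-square per degree of freedom 3.47 to 19.0 over 33 pairs), and none was counted as a duplicate.

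Counts were rounded and tested with edgeR 4.0.16 in R 4.3.3: TMM scaling, filterByExpr on the 6 groups, 1 mean per group over 23 libraries, quasi-likelihood F tests, Benjamini-Hochberg adjustment over 22873 genes, threshold 0.05. Strain pairs were averaged over diets. In counts simulated for NZO/HlLtJ against C57BL/6J on the tested genes the script was checked for known fold changes. Log2 CPM for correlations used a prior count of 2. limma 3.58.1 and DESeq2 1.42.0 were alternatives. All 10 members are named in every comparison. Of each other list, the rule names the counts and the 3 tested genes with the highest mean CPM. It also names both CSF1R ligands, Lyz1, Spic and Ch25h. Genes outside this rule were chosen after their values were seen. They were chosen by role (C1ra, C1s1, C2, C4b, Spi1, Il1b) or position (Hmgxb3, Vav1, Fcrls, Etv3). Others were chosen by list (Dmbt1, Ssc5d, Hsd3b6, Cyp11a1, Itgax, H2-Ab1, H2-Eb1, Emcn). Some results that the rule would name are not reported here.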

Additional observations from a re-analysis of the deposited data

Results flagged for a closer look

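In 50 groups of 4 libraries (10 members in 5 groups), a library was marked where its gap to the nearest other library, divided by the range of the group, exceeded Dixon's 95% critical value for 4 samples. Chance marks about 1 in 20 groups, and 3 were marked.

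Lyz2 in C57BL/6J 10% fat was highest in replicate 2, at 18.5 CPM, with a ratio of 0.865. In CAST/EiJ 44% fat, replicate 2 was lowest for Adgre1 (2.35 CPM, ratio 0.864) and for C1qc (5.30 CPM, ratio 0.885). These are the 2 libraries with the highest Crisp1, 13.02 and 99.0 CPM. Without both of them, the members called were 8 between NZO/HlLtJ and C57BL/6J, 7 between CAST/EiJ and C57BL/6J and 8 between NZO/HlLtJ and CAST/EiJ. The shares of all genes called without both are not given here.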

How the results depend on the processing

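Each strain and diet result was repeated with other size factors, no filter on low counts, an additive term for runs of sample numbers, a fold limit, the compared groups alone, limma, DESeq2, each diet alone, each library left out, and pairs of libraries left out (the 2 pairs chosen on Crisp1 and on the fourth component were added after the data were seen). Members called in any diet comparison stayed at 0 under all of these that could be run. With a fold limit of 1.5 the members called fell to 1 (Cd5l) between NZO/HlLtJ and C57BL/6J, 3 between CAST/EiJ and C57BL/6J and 2 between NZO/HlLtJ and CAST/EiJ. Without both NZO/HlLtJ libraries that stand apart, the first count was 4. Leaving out 1 library gave 5 to 8, 7 to 9 and 8 to 9. The shares of all genes called under these settings are not given here, so these counts are not set against a background. Cd163 between NZO/HlLtJ and C57BL/6J reversed to -0.022 on 10% fat alone; the cause was not tested. C1qa and C1qc between CAST/EiJ and C57BL/6J lay near the threshold: with the compared groups alone both were called, at adjusted p 0.0277 and 0.0311. Differences of Cd5l are smaller on the authors' log2 scale (-1.23 for NZO/HlLtJ and -1.08 for CAST/EiJ against C57BL/6J), and were called there too. At 0 to 9 counts per library, Cd5l in NZO/HlLtJ has little precision. No paired analysis was possible because the labels give no replicate numbers.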

Other observations

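Genes of MHC class II in NZO/HlLtJ were the part of the macrophage lists with the most low p-values between diets, a pattern singled out after the values were seen. Of the 8 tested in that list, which also holds Itgax, 4 had an unadjusted p under 0.05 by edgeR and 0 were called. The share of all genes at that unadjusted p is not given here, so such counts are not set against a background. The median log2 difference of the 8 was 0.65 for 44% against 10% fat. The values rest largely on 1 library. In NZO/HlLtJ 44% fat replicate 2 the 8 genes summed to 60.1 CPM, against 29.5 to 35.4 CPM in the other 3 libraries on 44% fat and 23.04 to 36.2 CPM on 10% fat. Cd74 differed by 0.70 (95% interval 0.17 to 1.23, adjusted p 0.720) and H2-Aa by 0.60 (0.06 to 1.14, adjusted p 0.723). Without that library, left out after the values were seen, the differences were 0.37 (adjusted p 0.861) and 0.12 (adjusted p 0.950). In C57BL/6J and CAST/EiJ 0 of the 8 had an unadjusted p under 0.05, and the medians were 0.03 and -0.10. In the test of unequal diet effects over the 3 strains 1 of the 8 had an unadjusted p under 0.05 and 0 were called.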
